A study of Bos taurus with 6 samples.

Results

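The genes described here make or remove reactive oxygen in vascular endothelium: 45 genes were listed by name, among them NADPH oxidase subunits, superoxide dismutases, catalase, peroxidases and the thioredoxin and glutathione systems. An Affymetrix bovine array measured 40 of them. The 5 others (NOX1, NOX5, GPX8, TXNIP and GLRX) were not analysed here. The whole array gave 9162 named genes, which served as the background. A gene with several probe sets was read from the one with the highest mean over all arrays.

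The cells were primary bovine aortic endothelial cells, isolated with collagenase and grown in RPMI. The tested plates (TGFB1 1 to 3) received 5 ng/ml TGF-beta 1 for 24 hours, and the untreated plates (basal 1 to 3) stayed under basal conditions. The labels give 3 arrays per group from 3 cultures. They name no animal and leave unsaid whether treated and basal arrays share cultures, so a p-value here measures only the spread between these arrays, which may be technical.

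Reactive oxygen in these cells comes largely from membrane NADPH oxidases, which pass electrons to oxygen to form superoxide or hydrogen peroxide, and from mitochondria. Superoxide dismutases turn superoxide into hydrogen peroxide. Catalase, glutathione peroxidases and peroxiredoxins then remove the peroxide, and the last 2 families are kept reduced by glutathione and thioredoxin. TGF-beta is known as an inducer of NOX4 in several vascular and fibroblast cell types, and NRF2 (gene NFE2L2) is the transcription factor that drives many antioxidant genes.

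Values are log2 expression as the authors deposited them, and a difference of 1 is a 2-fold change. Precision is limited by the small number of arrays. The 6 arrays had medians between 5.88 and 5.92. They did not separate by treatment alone: basal 3 correlated across probe sets at 0.987 with TGFB1 3, against 0.942 with basal 1. On the first principal component, which held 63.4% of the variance, TGFB1 1 lay at -10.3, TGFB1 2 at 39.5 and TGFB1 3 at 41.4, while basal 1 lay at -67.8, basal 2 at -38.8 and basal 3 at 36.0. Results that move with basal 3 are given with and without that array.

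The endothelial label was checked against 12 fixed markers, of which 11 were measured. Of these, 10 had a mean above the array median of 5.92. KDR did not, at a mean of 4.47 in treated and 5.14 in basal cells, and CLDN5, the claudin of endothelial tight junctions, fell by 3.17 log2 (limma adjusted p = 0.0371). No other endothelial marker passed. EMCN (0.82) and ROBO4 (0.75) were higher, and KDR (-0.67), PECAM1 (-0.52), CDH5 (-0.57), ERG (-0.60) and VWF (-0.17) lower. All of these and CLDN5 had groups without overlap, as 23.3% of all genes did. VWF lay close to the array median, at 6.01 in treated and 6.19 in basal cells. TEK (0.02), TIE1 (-0.70) and EGFL7 (-0.23) had groups that overlapped. Summed on the linear scale, endothelial markers ranged from 14600 to 18100 in treated and from 14800 to 20700 in basal arrays. Leukocyte markers (10 of 11 measured) summed to between 3270 and 4460 in treated and between 2470 and 4320 in basal arrays, and none of them passed. LAPTM5, a lysosomal protein, was the brightest of them, at a mean of 11.68 log2 in treated and 11.63 in basal cells, and CD14 also lay above the array median, at 7.10 in treated and 6.74 in basal cells. The 8 others lay below that median, 3 of them, with the common leukocyte antigen PTPRC, below the 25th percentile of the arrays (4.57). Smooth muscle markers (7 of 9 measured) summed to between 4400 and 5690 in treated arrays, against 1360 to 1700 in basal arrays. TAGLN, the actin-bundling transgelin, was the 1 of these 7 past the threshold, higher by 2.19 log2 in treated cells. At a mean of 12.14 in treated and 9.95 in basal cells it was also the brightest, so the sums rest mainly on TAGLN. The other smooth muscle markers had groups that overlapped, with differences from -0.26 (SMTN) to 0.20 (ACTA2). Fibroblast markers (7 of 7 measured) summed to between 3920 and 6860 in treated and between 3580 and 4520 in basal arrays, and none of them passed. Erythroid markers (6 of 8 measured, all below the array median) summed to between 155 and 216 in treated and between 130 and 149 in basal arrays. The part of these markers in the results below was not tested.

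Of the 40 measured members, 1 passed the threshold of a limma adjusted p under 0.05 over all genes: UCP2, which fell. That is 2.5% of the members, against 1.72% of all 9162 genes (158 genes, with 0.557% higher and 1.17% lower), so the share lay near the background. At an unadjusted limma p under 0.05 the members numbered 8 (20%), 1 higher and 7 lower, against 17.4% of all genes (5.99% higher and 11.4% lower). In 10 members the treated arrays did not overlap the basal arrays, 1 higher and 9 lower. All genes reached 23.3% by that rule, 8.19% higher and 15.1% lower, and the members reached 25%, 2.5% higher and 22.5% lower. The mean was lower after treatment in 30 members (75%), against 55.6% of all genes. The median change of the members was -0.14 log2 (range -1.69 to 0.65), and that of all genes -0.03. The members were chosen with earlier results of these data known, so these shares, and those of role groups below, only describe them.

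**Figure D1:**
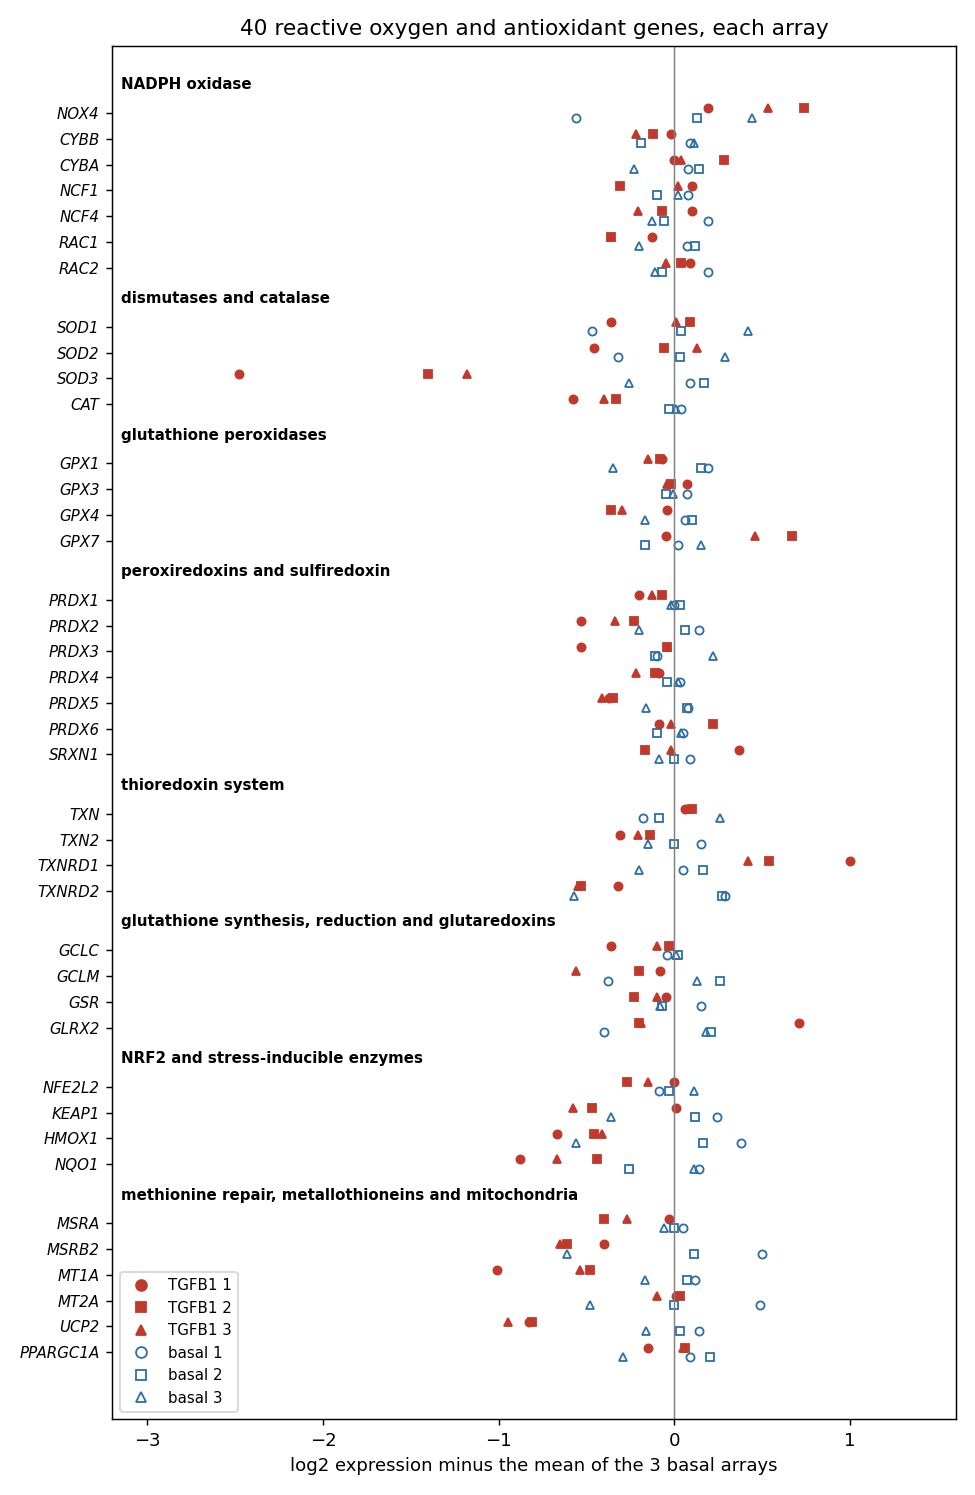
Log2 expression of the 40 measured members in each array, as the difference from the mean of the 3 basal arrays (x axis, log2), with genes grouped by role. Filled red symbols are treated arrays and open blue symbols basal arrays, with circles, squares and triangles for replicates 1, 2 and 3. The treated SOD3 values lie farthest to the left, the treated UCP2 values sit close together left of the basal ones, and TXNRD1 is the 1 gene with all treated arrays to the right of all basal arrays.

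The sources of reactive oxygen showed no member past the threshold. None of the 7 measured NADPH oxidase genes had groups that did not overlap (0%, against 23.3% of all genes). So few genes cannot show a departure from that share. Their median change was -0.06 log2. NOX4 (Entrez gene 378474), the catalytic subunit that is most abundant in endothelium and gives mainly hydrogen peroxide, stood at 8.06, 8.61 and 8.40 log2 in treated cells and at 7.31, 8.00 and 8.31 in basal cells. Basal 1 was the lowest array, and basal 2 and 3 reached close to or into the treated range. The difference was 0.49 log2 (SE 0.29, 95% interval -0.21 to 1.18, limma adjusted p = 0.456). Its other, dimmer probe set lay on the same side, at 0.40 (SE 0.15), and its groups also overlapped. Without basal 3 the NOX4 difference was 0.71 (limma adjusted p = 0.121), short of the threshold, and over all alternatives it stayed between 0.20 and 0.71.

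The partner subunits differed less. CYBA, the p22phox subunit that NOX4 needs for activity, averaged 8.02 ± 0.15 log2 in treated and 7.92 ± 0.20 in basal cells (SD, n = 3 each), a difference of 0.11 with an interval of -0.25 to 0.46. CYBB, the catalytic subunit of the phagocyte oxidase, averaged 4.80 ± 0.10 in treated and 4.92 ± 0.17 in basal cells, a difference of -0.12, and its other probe set gave 0.05. Its cytosolic organisers NCF1 (p47phox) and NCF4 (p40phox) both stood at -0.06, and NCF1 lay below the 25th percentile of the arrays. The arrays carry no detection call, so CYBB and NCF1 were not shown to lie above background. RAC1, the small GTPase that assembles oxidase complexes and also steers the cytoskeleton, averaged 11.89 ± 0.13 in treated and 12.17 ± 0.17 in basal cells. Its difference was -0.28 (interval -0.60 to 0.05), and the other probe set gave the same -0.28. RAC2, the form of blood cells, stood at 0.02.

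The dismutases and catalase differed among themselves. SOD3 (Entrez gene 532481), the extracellular copper and zinc dismutase that binds to the vascular matrix, had the largest difference of all 40 members. It stood at 4.73, 5.81 and 6.03 log2 in treated cells, against 7.30, 7.38 and 6.95 in basal cells. Every treated array lay below every basal array, with TGFB1 1 more than 1 log2 below the other treated arrays. The difference was -1.69 (SE 0.35, interval -2.55 to -0.82), a 3.22-fold lower level, with a limma adjusted p = 0.084 that missed the threshold. At an adjusted p under 0.1, which 4.73% of all genes reached, SOD3 and UCP2 were the 2 members to pass. Fewer cells that make SOD3 and less SOD3 RNA per cell cannot be told apart in such bulk samples, here or in any result below. A second SOD3 probe set stood at 5.96, 5.81 and 5.82 in treated and 5.93, 5.93 and 6.17 in basal cells, a difference of -0.15 (SE 0.11), so the size of the change rests on 1 probe set.

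The intracellular dismutases showed no such gap. SOD1, the cytosolic copper and zinc enzyme, stood at 11.15, 11.60 and 11.52 in treated and at 11.04, 11.55 and 11.93 in basal cells. SOD2, the manganese enzyme of mitochondria, stood at 8.86, 9.26 and 9.45 in treated and at 9.00, 9.35 and 9.61 in basal cells. In both genes the groups overlapped widely. Differences were -0.08 (interval -0.70 to 0.53) for SOD1 and -0.12 (interval -0.66 to 0.41) for SOD2. CAT, the peroxisomal catalase, stood at 9.76, 10.01 and 9.94 in treated and at 10.38, 10.31 and 10.35 in basal cells. Its basal arrays lay within a narrow band above all treated arrays, yet the difference of -0.44 (SE 0.11, interval -0.71 to -0.17) did not pass over all genes (limma adjusted p = 0.113, from 0.0654 to 0.338 over the alternatives).

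None of the 4 measured glutathione peroxidases had groups that did not overlap (0%, against 23.3% of all genes), too few genes to differ from that share. No difference passed, where 1.72% of all genes did. These enzymes use glutathione to reduce peroxides, and GPX1, GPX3 and GPX4 do so with selenocysteine. GPX1, the cytosolic form, averaged 11.68 ± 0.04 log2 in treated and 11.78 ± 0.30 in basal cells, where basal 3 stood at 11.43, below all treated arrays. That is a difference of -0.10, and the dimmer other GPX1 probe set gave 0.04. GPX4, which reduces lipid peroxides in membranes, averaged 12.02 ± 0.17 in treated and 12.25 ± 0.15 in basal cells. GPX7, a cysteine form of the endoplasmic reticulum, averaged 9.13 ± 0.37 in treated and 8.77 ± 0.16 in basal cells, with TGFB1 1 at 8.72 inside the basal range and TGFB1 2 and TGFB1 3 above it at 9.44 and 9.23. Its difference was 0.36 (interval -0.15 to 0.87). GPX3, the secreted plasma form, stood at 0.00 with a mean of 4.21 in both groups, below the 25th percentile, and so at a level not shown to be above background.

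Peroxiredoxins, the thiol peroxidases that carry much of the cell's peroxide removal, showed small differences. Of the 7 genes measured with sulfiredoxin, 5 had a lower mean in treated cells (71.4%, against 55.6% of all genes), and none passed. In 4 of the 7 all treated arrays lay below all basal arrays (57.1%, against 15.1% of all genes). PRDX5, found in mitochondria and peroxisomes, stood at 9.84, 9.86 and 9.80 in treated and at 10.29, 10.28 and 10.05 in basal cells. Basal 3 was the basal array nearest to the treated ones. The difference was -0.37 (SE 0.11, interval -0.64 to -0.10, limma adjusted p = 0.161). PRDX2, a cytosolic form, had the same difference of -0.37 with a wider interval of -0.72 to -0.02. PRDX1 and PRDX4, a cytosolic and an endoplasmic reticulum form, stood at -0.14 (interval -0.37 to 0.10) and -0.15 (interval -0.38 to 0.09), so their gaps between groups were small beside their error.

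PRDX3, the mitochondrial form, had probe sets that disagreed. The brighter one averaged 10.45 ± 0.28 in treated and 10.65 ± 0.18 in basal cells, a difference of -0.21 (interval -0.65 to 0.23). The other stood at 8.94, 9.06 and 9.14 in treated and at 7.98, 8.68 and 9.00 in basal cells, a difference of 0.50 (SE 0.26). No direction can be given for PRDX3. PRDX6, which also has phospholipase activity, stood at 0.04, and the 3 other probe sets of PRDX6 lay between 0.01 and 0.26. SRXN1, the sulfiredoxin that repairs overoxidised peroxiredoxins, stood at 0.06.

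In the thioredoxin system the cytosolic and mitochondrial reductases had differences of opposite sign, neither past the threshold. TXNRD1 (Entrez gene 282388), the cytosolic selenoenzyme that reduces thioredoxin and a known NRF2 target, was the 1 member with all treated arrays higher. It stood at 10.66, 10.20 and 10.08 in treated and at 9.71, 9.82 and 9.46 in basal cells. TGFB1 1 was the highest array. The difference was 0.65 (SE 0.19, interval 0.19 to 1.12), a 1.57-fold higher level, and missed the threshold (limma adjusted p = 0.153, from 0.113 to 0.346 over the alternatives). TXNRD2, its mitochondrial counterpart, stood at 6.54, 6.33 and 6.31 in treated and at 7.15, 7.13 and 6.29 in basal cells. Basal 1 and basal 2 lay above all treated arrays and basal 3 below them. The TXNRD2 difference was -0.46 (interval -1.08 to 0.15, limma adjusted p = 0.422), and without basal 3 it was -0.75 (limma adjusted p = 0.0199).

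The thioredoxins themselves differed little between groups. TXN, the cytosolic form, averaged 12.48 ± 0.02 in treated and 12.40 ± 0.23 in basal cells, a difference of 0.08 (interval -0.26 to 0.42). TXN2, the mitochondrial form, averaged 8.85 ± 0.09 in treated and 9.07 ± 0.15 in basal cells, a difference of -0.22 (interval -0.51 to 0.07).

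The 4 measured genes of glutathione synthesis and recycling had no member past the threshold and none without overlap. Of all genes 1.72% and 23.3% did, and 4 genes are too few to differ from these shares. GCLC and GCLM, the catalytic and modifier subunits of the enzyme that limits glutathione synthesis, stood at -0.16 (interval -0.46 to 0.14) and -0.28 (interval -0.81 to 0.24). GCLC lay below the 25th percentile of the arrays. GSR, which regenerates reduced glutathione, averaged 8.88 ± 0.09 in treated and 9.01 ± 0.13 in basal cells. GLRX2, a mitochondrial glutaredoxin, stood at 10.34, 9.43 and 9.44 in treated and at 9.23, 9.84 and 9.81 in basal cells. TGFB1 1 lay above the basal range and the other treated arrays inside it, and the difference was 0.11 (SE 0.31).

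NRF2 and its repressor were measured with their classical targets. NFE2L2 (NRF2) averaged 9.97 ± 0.14 in treated and 10.11 ± 0.10 in basal cells, a difference of -0.13 (interval -0.42 to 0.16). A second, dimmer NFE2L2 probe set gave 0.11 (SE 0.13), and the mean of both gave -0.01, so no direction can be given for NFE2L2. KEAP1, the adaptor that marks NRF2 for degradation, stood at 8.69, 8.21 and 8.10 in treated and at 8.92, 8.80 and 8.32 in basal cells. Its 3 probe sets gave -0.34, -0.34 and -0.22, none past the threshold and each with groups that overlapped.

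NQO1 (Entrez gene 519632), a quinone reductase, stood at 6.90, 7.34 and 7.11 in treated and at 7.92, 7.52 and 7.89 in basal cells. All treated arrays lay below all basal arrays, and the gap between the nearest arrays, TGFB1 2 and basal 2, was small. The difference was -0.66 (SE 0.17, interval -1.07 to -0.24, limma adjusted p = 0.124). HMOX1, the heme oxygenase that makes biliverdin, iron and carbon monoxide, stood at 8.08, 8.29 and 8.34 in treated and at 9.13, 8.91 and 8.19 in basal cells. Basal 3 lay among the treated arrays. The HMOX1 difference was -0.51 (interval -1.13 to 0.11, limma adjusted p = 0.382) over all arrays and -0.78 (limma adjusted p = 0.0229) without basal 3.

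UCP2 (Entrez gene 281562), an inner mitochondrial membrane carrier linked to lower mitochondrial superoxide, was the member that passed. It stood at 7.04, 7.06 and 6.92 log2 in treated cells, against 8.01, 7.90 and 7.71 in basal cells. The treated arrays lay within a narrow band, well below every basal array. UCP2 fell by 0.87 log2 (SE 0.12, interval -1.16 to -0.57), a 1.82-fold lower level, with a limma adjusted p = 0.0371. It was called in 8 of 15 alternatives, and its adjusted p ran from 0.0104 without basal 3 to 0.201 without basal 2. Leaving out any array other than basal 3 ended the call, while the difference stayed between -0.95 and -0.80 in every alternative tried. The share of all genes called was 1.46% with a further quantile normalization, 1.75% with arrays centred on their medians, 1.62% with robust eBayes, 1.99% and 2.39% with genes below the 25th percentile or the median removed, and 1.74% with the mean of a gene's probe sets. It was 0.658% of all probe sets tested together. UCP2 kept its call in all of these. UCP2 lost its call with limma-trend, where 1.08% of genes were called, and with the replicate number as a block. Without TGFB1 1, TGFB1 3 or basal 1 the share of all genes was 0.0327%, 0.0873% and 0.0109%, and without TGFB1 2 or basal 2 it was 0. UCP2 had no other named probe set.

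PPARGC1A, the coactivator PGC-1 alpha that raises mitochondrial biogenesis and antioxidant genes, had 4 probe sets. The brightest averaged 4.47 ± 0.12 in treated and 4.48 ± 0.26 in basal cells, below the 25th percentile of the arrays, and the 3 others lay lower still with differences between -0.05 and 0.02. At this level, not shown to be above background, a change of PPARGC1A could not be measured.

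The metallothioneins bind zinc and copper and scavenge radicals. MT1A stood at 6.86, 7.39 and 7.33 in treated and at 7.99, 7.94 and 7.70 in basal cells, without overlap. Its difference was -0.68 (SE 0.18, interval -1.11 to -0.25, limma adjusted p = 0.124), and it passed without basal 3 (-0.77, limma adjusted p = 0.046). MT2A stood at 10.40, 10.42 and 10.29 in treated and at 10.88, 10.39 and 9.91 in basal cells, where the basal arrays spanned the whole treated range, and the difference was -0.02. The metallothionein genes are close in sequence, and whether each probe set reads a single gene was not tested.

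Methionine sulfoxide reductases repair oxidised methionine in proteins. MSRA averaged 7.76 ± 0.19 in treated and 7.99 ± 0.06 in basal cells. MSRB2, the mitochondrial form, stood at 4.64, 4.43 and 4.39 in treated and at 5.54, 5.15 and 4.43 in basal cells, where basal 3 again lay inside the treated range. The MSRB2 difference was -0.55 (interval -1.24 to 0.14) over all arrays and -0.86 (limma adjusted p = 0.0263) without basal 3. The treated level lay close to the 25th percentile of the arrays, so the fold depends on a value near background.

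**Figure D2:**
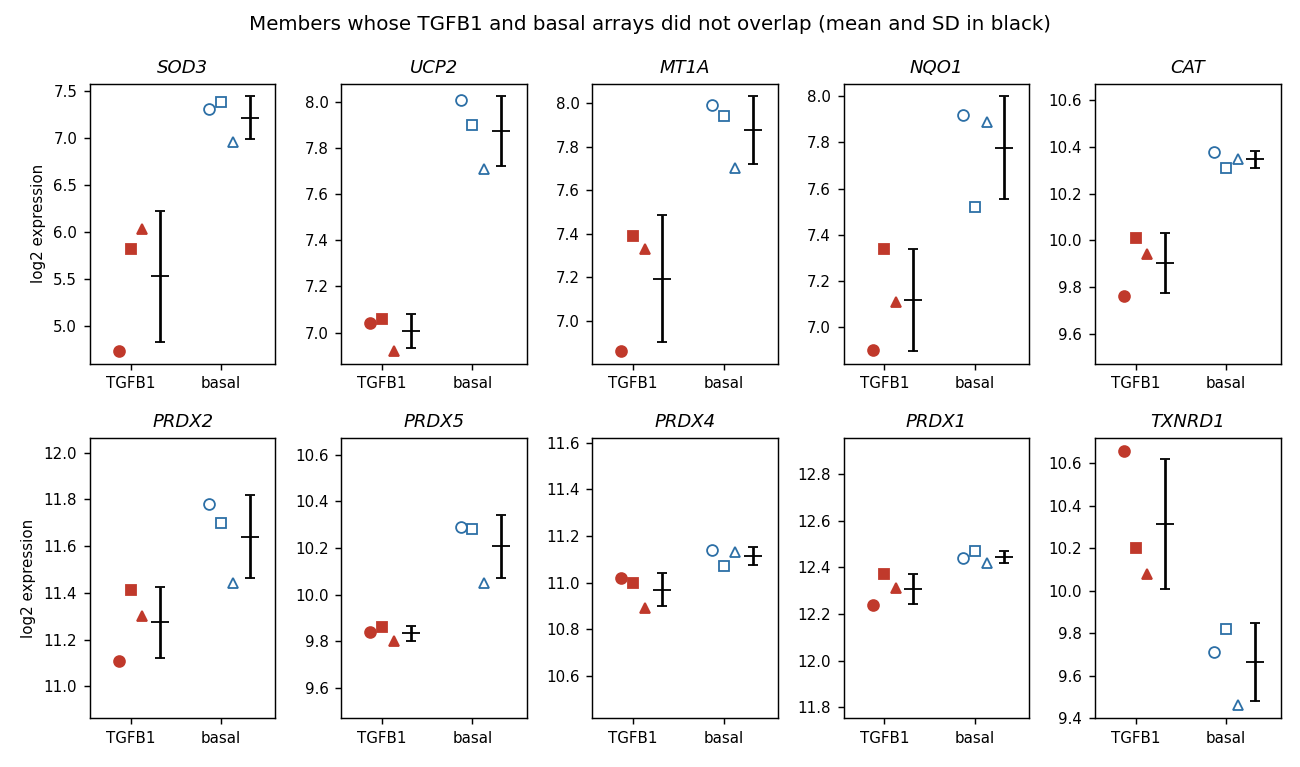
Log2 expression (y axis, a separate scale per gene) of the 10 members whose treated and basal arrays did not overlap, with treated arrays (filled red) left of basal arrays (open blue) and circles, squares and triangles for replicates 1, 2 and 3. Black marks give the mean and SD of 3 arrays. TXNRD1 is the 1 gene higher after treatment, and the gaps of PRDX4 and PRDX1 are narrow.

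**Figure D3:**
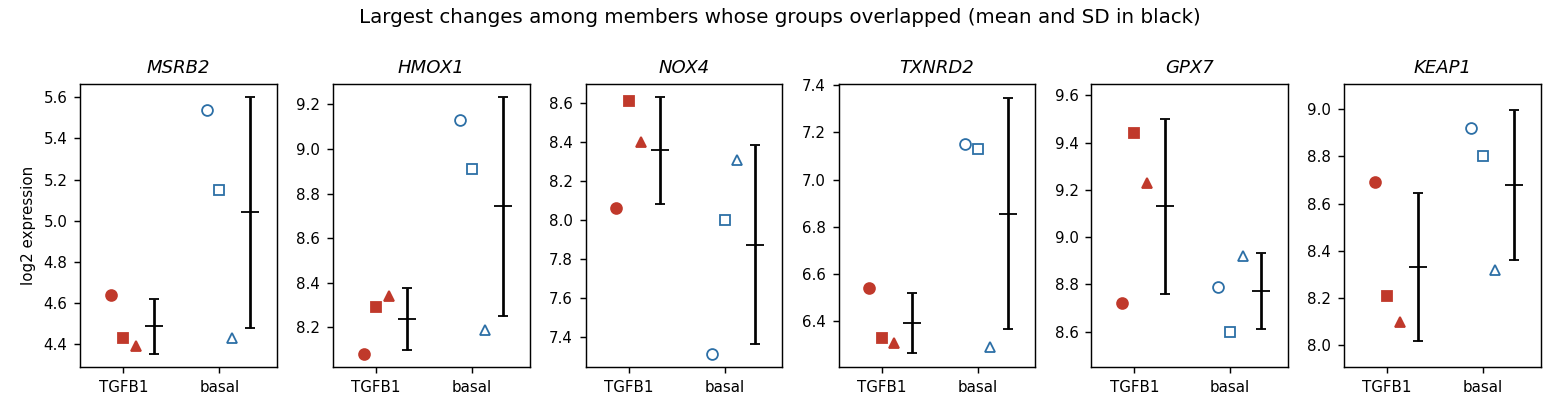
Log2 expression (y axis, a separate scale per gene) of the 6 members with the largest differences among those whose groups overlapped, drawn as in the panels of non-overlapping members. In MSRB2, HMOX1 and TXNRD2 the basal triangle (basal 3) sits at the treated level, and in NOX4 it sits inside the treated range.

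The position of basal 3 was counted over the members. It lay inside the range of the treated arrays in 16 of 40 members (40%), against 10 (25%) for basal 1 and 12 (30%) for basal 2. Over all genes these shares were 35.9% for basal 3, 25.9% for basal 1 and 35.7% for basal 2, so by this count basal 3 lay close to basal 2 and the members close to the background. Basal 3 was nearer to the treated mean than to the mean of the other basal arrays in 24 members (60%), against 67.8% of all genes, so the members followed the array as other genes did. TGFB1 1 was nearer to the basal mean than to the other treated arrays in 22 members, against 51.3% of all genes.

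Without basal 3, 7 members passed, all of them lower: SOD3 (-1.82, limma adjusted p = 0.0366), UCP2, MSRB2, HMOX1, MT1A, TXNRD2 and PRDX5 (-0.45, limma adjusted p = 0.0389). That is 17.5% of the members, against 16.8% of all genes in the same fit, so the share in either direction again lay near the background. Of all genes 1017 passed lower and 521 higher in this fit, while no member passed higher. TXNRD1 (0.55), CAT (-0.44), NQO1 (-0.60) and NOX4 did not pass in it. The remaining basal arrays are those that lie apart from TGFB1 2 and TGFB1 3 on the first component, so in this fit the treatment and that array difference cannot be told apart. SOD1 and SOD2 lay on the other side of 0 in it, at 0.13 and 0.02, both without a call.

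**Figure D4:**
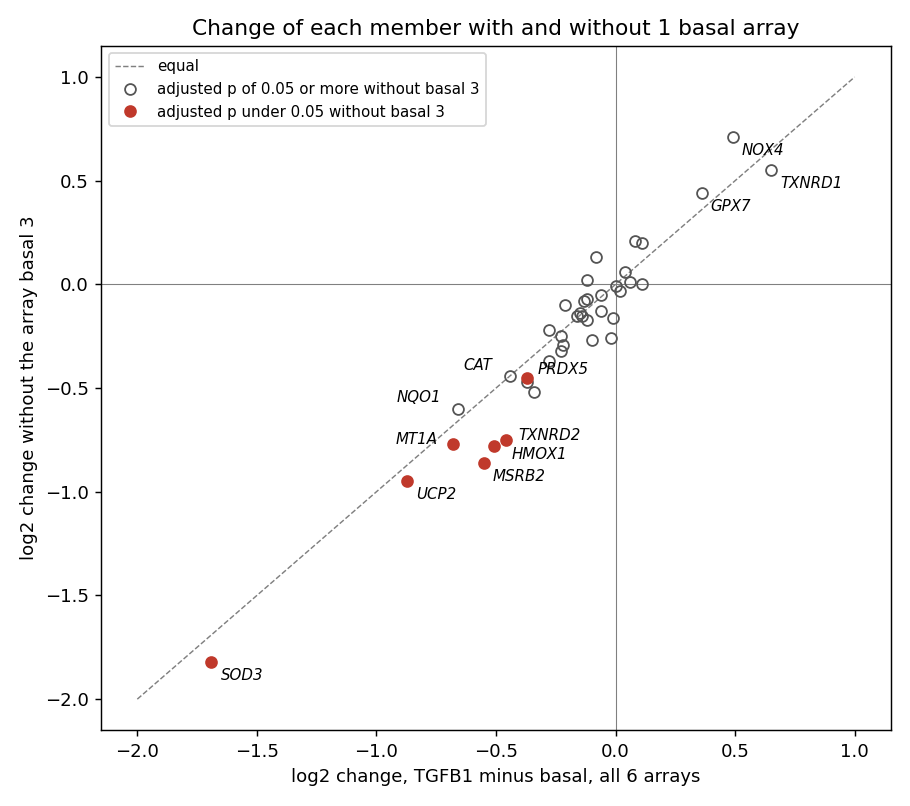
Log2 change, treated minus basal, of each of the 40 members over all 6 arrays (x axis) and without the array basal 3 (y axis), with a dashed line where both are equal. Filled points had a limma adjusted p under 0.05 without basal 3. The 7 filled points all lie below 0, and MSRB2, HMOX1 and TXNRD2 lie farthest below the line.

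The wider pathway was read from 5 further lists with 114 genes, of which 78 were measured. The lists were chosen with earlier results of these data known. Shares above those of all genes, here and list by list below, therefore only describe the lists. In these lists 3 genes passed, all lower, which is 3.85% against 1.72% of all genes. The groups did not overlap in 25 of the 78 (5 higher, 20 lower), or 32.1% against 23.3%. By direction that is 6.41% higher, against 8.19% of all genes, and 25.6% lower, against 15.1%. The median change was -0.10 log2.

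Among other oxidases, 1 of 9 passed (11.1%, against 1.72% of all genes). AOX1, an aldehyde oxidase that releases superoxide and hydrogen peroxide, fell by 1.13 log2 (SE 0.15, limma adjusted p = 0.0371), standing at 9.15, 8.91 and 9.31 in treated and at 10.44, 10.21 and 10.12 in basal cells. MAOA, a mitochondrial monoamine oxidase that yields hydrogen peroxide, stood at -1.10 (SE 0.31, limma adjusted p = 0.144). In both genes the treated arrays lay below the basal arrays without overlap. Of the 9 genes, 6 (66.7%, against 23.3% of all genes) had groups that did not overlap. Of these, 2 were higher (22.2%, against 8.19%) and 4 lower (44.4%, against 15.1%).

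Among 15 genes of glutathione synthesis and transferases, 1 passed (6.67%, against 1.72% of all genes). MGST1, a microsomal transferase with peroxidase activity, fell by 1.62 log2 (SE 0.26, limma adjusted p = 0.0461), standing at 5.67, 5.24 and 5.28 in treated and at 6.76, 7.55 and 6.75 in basal cells. GSTT1, a cytosolic transferase, stood at -0.71 (SE 0.12, limma adjusted p = 0.0521). In this list 7 genes (46.7%, against 23.3% of all genes) had groups that did not overlap, 6 of them lower (40%, against 15.1%).

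Of 22 genes of the NRF2 pathway and NADPH supply, 1 passed (4.55%, against 1.72% of all genes). ALDH2, the mitochondrial aldehyde dehydrogenase that clears products of lipid peroxidation, fell by 0.94 log2 (SE 0.14, limma adjusted p = 0.0399), standing at 10.63, 10.62 and 10.62 in treated and at 11.69, 11.69 and 11.31 in basal cells. IDH1, which makes NADPH in the cytosol, stood at -0.99 (SE 0.18, limma adjusted p = 0.0657). IDH1 had 3 probe sets, and this difference was read from the brightest alone. Here 9 genes (40.9%, against 23.3% of all genes) had groups that did not overlap, 2 higher (9.09%, against 8.19%) and 7 lower (31.8%, against 15.1%).

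Neither of the remaining lists had a gene past the threshold, and the groups did not overlap in 2 of 15 (13.3%) and 1 of 17 genes (5.88%), against 23.3% of all genes. Of 15 further thioredoxin-fold and peroxidase genes, NXN, the thioredoxin-fold protein nucleoredoxin, stood at -0.88 (SE 0.16, limma adjusted p = 0.0657), and CCS, the chaperone that loads copper into SOD1, at -0.87 (SE 0.20, limma adjusted p = 0.094). Of 17 regulators of mitochondrial biogenesis and stress, SIRT3, the main mitochondrial deacetylase, stood at -0.51 (SE 0.10, limma adjusted p = 0.0743). SIRT3 averaged 5.16 in treated and 5.67 in basal cells, below the array median. It had 2 probe sets and PPARD 3, and each gene was read from its brightest alone. PPARD, a nuclear receptor of fatty acid metabolism, stood at -0.40 (SE 0.29, limma adjusted p = 0.547), with groups that overlapped.

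**Figure D5:**
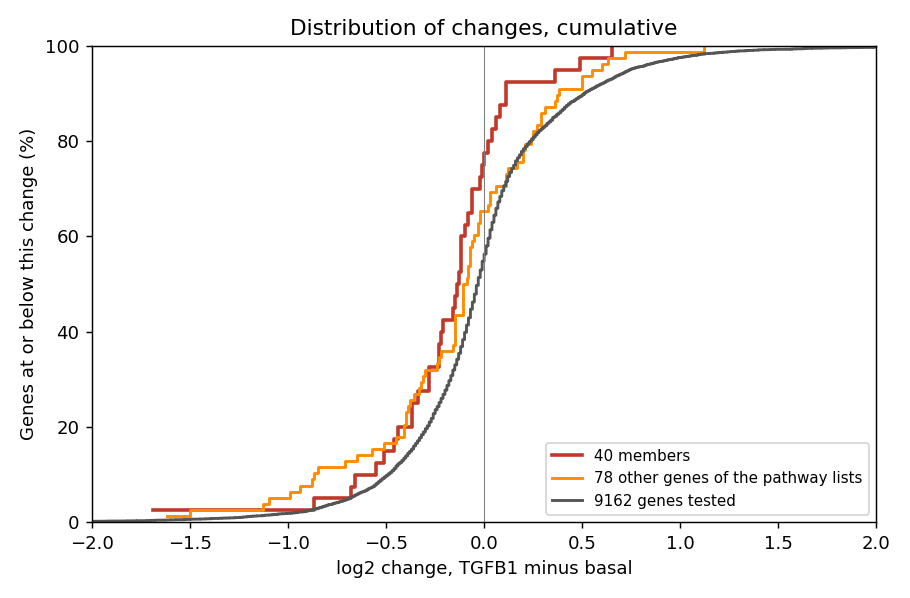
Cumulative share of genes (y axis, percent) by log2 change, treated minus basal (x axis), for the 40 members, the 78 other genes of the pathway lists and all 9162 genes tested. The curves of the members and of the pathway lists lie left of that of all genes around 0, with medians of -0.14, -0.10 and -0.03, and the members' curve ends at 0.65. The x axis stops at -2 and 2, and changes beyond these values occur among all genes.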

How the data were processed

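The deposited values are log2 expression of 24128 probe sets, 1 column per array, made by the authors with RMA (affy package, versions not given), per the submitters' processing notes. Per the labels' protocols, 4 µg of total RNA per array was labelled with biotin. The RMA method subtracts background, equalises the distribution of the arrays and combines probes. It compresses changes near background and gives no detection call. The 112 control probe sets were left out, and of the 24016 others the platform annotation gave 1 symbol for 13292. RefSeq (ARS-UCD2.0) matched 13263 of these by gene ID with 0 symbols changed, and it was used for names only. The probe set with the highest mean over 6 arrays stood for each of 9162 genes.

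The test was limma's (version 3.58.1, R 4.3.3), with lmFit and eBayes (group as the only term, 4 residual and 2.14 prior degrees of freedom, no filter), two-sided, with Benjamini-Hochberg adjustment over all genes and a threshold of 0.05. Errors and 95% intervals are those of this fit. The fit was tested on simulated data with known changes and independent noise in each array. Differences shared by many genes of an array, as in basal 3, were not simulated, so that test does not cover them. The exact permutation test of 3 arrays against 3 was not used, since it cannot reach the threshold.

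The members and gene lists were chosen with earlier results of these data known. Every measured member is given. Of each further list the rule named the genes past the threshold and the 2 with the smallest unadjusted p. The lists in the closing section were added after the data were seen. Deviations from the group means correlated at 0.67, -0.509 and 0.703 between same-numbered arrays 1, 2 and 3. Between arrays of different number they correlated at -0.776 to 0.668. Whether same-numbered arrays share a culture cannot be told from these values. The alternatives are given in the closing section. Figures were drawn with matplotlib 3.10.9.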

Additional observations from a re-analysis of the deposited data

How the results depend on the processing

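UCP2 was the 1 member past the threshold with robust eBayes, with arrays centred on their medians or quantile-normalized again, with dim genes removed (below the 25th percentile or below the median), the mean of a gene's probe sets, all probe sets tested together and a minimum of 1.5-fold. The member count was 0 with limma-trend (99 of all genes; at an unadjusted p under 0.05, 8 members and 1491 genes, or 16.3%) and 0 with the replicate number as a block (0 of all genes by limma, with 9 members and 2039 genes, or 22.3%, at an unadjusted p under 0.05). The replicate block left UCP2 at -0.87 with an adjusted p = 0.0801. The labels do not say whether equal numbers mark a shared culture, so it is not known whether the block belongs in the fit. At an adjusted p under 0.1, 2 members (SOD3 and UCP2) and 433 genes passed. Leaving out 1 array gave from 0 to 7 members and from 0 to 1538 genes, with 7 and 1538 without basal 3. Without TGFB1 1, TGFB1 2, TGFB1 3, basal 1 or basal 2 no member passed by limma, and 3, 0, 8, 1 and 0 genes passed. At an unadjusted p under 0.05 these fits had 6 to 9 members (15% to 22.5%) and 1010 to 1359 genes (11% to 14.8%). UCP2 kept its call in 8 alternatives and lost it in 7, and 6 other members gained a call, all without basal 3. No call changed sign. The median change of a role group, of all members or of all genes moved beyond the spread between treated arrays in 12 combinations with an alternative and stayed within it in 138. That of all members was -0.18 with genes below the median removed. Dim probe sets (NCF1, GPX3, GCLC and PPARGC1A) limit what can be said of their genes.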

Other observations

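Copper is the cofactor of SOD1 and SOD3, and iron is released by HMOX1 and stored by ferritin. A list of 25 genes of copper and iron handling, chosen after the data were seen, had 17 measured genes. None passed the limma threshold over all genes, with 9 (52.9%) at an unadjusted p under 0.05, against 17.4% of all genes. The groups did not overlap in 10 of the 17, or 58.8% against 23.3% of all genes. Of these, 4 were higher (23.5%, against 8.19%) and 6 lower (35.3%, against 15.1%). CCS, HMOX1, HMOX2, FTH1 and FTL were already in the lists above. SLC31A1, the copper importer of the plasma membrane, stood at 10.21, 9.84 and 9.63 log2 in treated and at 8.77, 9.04 and 8.90 in basal cells (0.99, SE 0.18, limma adjusted p = 0.0573). On the other side, the chaperone ATOX1, which hands copper to the secretory pathway, stood at 10.35, 11.04 and 10.96 in treated and at 11.18, 11.17 and 11.17 in basal cells (-0.39, limma adjusted p = 0.389). COMMD1, a copper-binding regulator, stood at -0.76 (SE 0.19) and SLC31A2 at -0.74 (SE 0.22), both with no overlap. COMMD1 had 2 probe sets and was read from the brighter one alone. For iron, the transferrin receptor TFRC stood at 6.01, 6.59 and 6.39 in treated and at 5.49, 5.42 and 5.93 in basal cells (0.72, limma adjusted p = 0.151), and ACO1, an aconitase that also binds RNA to control iron genes, stood at 0.94 (SE 0.20, limma adjusted p = 0.089). The ferritin light chain FTL stood at -0.41 (SE 0.12, limma adjusted p = 0.148), while the heavy chain FTH1 stood at -0.02.

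A second list chosen after the data were seen held 30 genes of selenoproteins and the selenocysteine machinery, of which 21 were measured. SELENOP, the selenium carrier, was the 1 gene past the threshold (4.76%, against 1.72% of all genes). The groups did not overlap in 6 genes (28.6%, against 23.3% of all genes). Of these, 4 were higher (19%, against 8.19%) and 2 lower (9.52%, against 15.1%). GPX1, GPX2, GPX3, GPX4, TXNRD1, TXNRD2 and TXNRD3 were already in the lists above, and TXNRD1 is among the 4 higher. SELENOP fell by 2.02 log2 (SE 0.30), with a limma adjusted p = 0.0425, and stood at 8.79, 9.50 and 9.99 in treated and at 11.35, 11.52 and 11.48 in basal cells. SELENOK and SELENOS, partners in the degradation of misfolded endoplasmic reticulum proteins, stood at 0.44 (SE 0.11, limma adjusted p = 0.11) and 0.42 (SE 0.14, limma adjusted p = 0.192), with all treated arrays above all basal arrays in both.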
